A study of Mus musculus with 2 samples.

Results

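OG1 is an osteogenic cluster of the embryonic mouse coronal suture, which the study's authors describe as putative osteoprogenitors with Erg and Pthlh among its markers. Its members here were the cells marked OG1 in the deposited cell table, which gives a cluster to each osteogenic and mesenchymal cell. They were 261 of 5335 labelled cells in the library labelled E15.5 (embryonic day) and 1010 of 6830 at E17.5, or 1271 of 12165 in all. The table listed 262 OG1 cells at E15.5, and 1 of them was missing from the matrix.

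All tissue came from wildtype C57/BL6 mice, and no group carried an allele or a treatment. Coronal sutures were taken at E15.5 and E17.5 after skin, brain and part of the meninges had been removed. The E15.5 library came from pooled sutures cut out with scissors and digested with Collagenase II and Dispase, and dead cells were depleted with a kit. The E17.5 library came from scalpel-cut strips with the edges of both bones, from embryos of 2 litters, digested with Collagenase IV in 3 preparations and sorted for live cells by flow cytometry. Both were made with the 10x Genomics Chromium 3′ v2 reagents, which count each captured RNA molecule once by a unique molecular identifier (UMI). At E17.5 a 10x library was made from each of the 3 preparations as a technical control, and they were deposited as 1 sample, called the E17.5 library here. Each E17.5 barcode ends in 1 of 3 suffixes, as many as there were preparations, but the sources used here do not tie the suffixes to preparations or litters. E15.5 was 1 library with no replicate, and OG1 was defined on the expression of these same cells, so no test was run and no p-value is given. Stage, enzyme, sorting, sequencing site and counting software all changed from 1 library to the other, so their parts cannot be told apart. Intervals are at 95% and cover counting error only, and the values of the 3 suffixes show the spread within the E17.5 library.

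The flat bones of the skull grow where osteoprogenitors at their edges and in the suture become osteoblasts. Runx2 and Sp7 are the transcription factors that drive this step, and collagen I, osteopontin (Spp1), bone sialoprotein (Ibsp) and osteocalcin (Bglap) are matrix proteins that mark its later stages. Erg is an ETS-family transcription factor best known in endothelium and in cartilage of the joints. Pthlh encodes parathyroid hormone-related protein, a secreted ligand of the receptor Pth1r that holds back the maturation of chondrocytes. The other clusters of the table were OG2 to OG4 (osteogenic), PO1 and PO2 (proliferating osteogenic), LIG (ligament-like), EC1 to EC4 (ectocranial) and MG1 to MG4 (meningeal).

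OG1 held 1922906 UMIs at E15.5 and 11952871 at E17.5. Its cells were somewhat shallower than the other labelled cells, with a median of 6836 against 8582 UMIs at E15.5 and 10896 against 12552.5 at E17.5. The medians of the E17.5 suffixes were 11271, 10796 and 10854.5 UMIs. Levels are given as CPM, the UMIs of a gene over all UMIs of the cluster in that library, scaled to a total of 1000000. In the E15.5 matrix 17 OG1 cells lay outside the authors' cell filters and were kept, and the UMI totals matched those of the cell table in 0 of the 5335 E15.5 cells but in all 6830 E17.5 cells. Between 30 and 83 barcode sequences were shared by the E15.5 library and an E17.5 suffix, and 10 to 23 by 2 suffixes.

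The E15.5 cluster was not of 1 kind. Of its 261 cells, 15 (5.75%) held UMIs of at least 2 of 5 muscle genes and 30 (11.5%) held UMIs of at least 2 of 3 keratinocyte genes, and no cell held both. Among the E15.5 cells of the 14 other clusters these shares were 0.414% and 0.237%. In the 15 cells Myog, the transcription factor of differentiating muscle, stood at 3086 CPM and cardiac actin Actc1 at 4604 CPM, whereas Col1a1 stood at 146 CPM against 6629 CPM in the other labelled cells and Runx2, Sp7 and Dlx5 had 0 UMIs. In the 30 cells the basal keratins Krt14 and Krt5 stood at 1919 and 1525 CPM and Col1a1 at 245 CPM, and the cells were shallow, with a median of 3260 UMIs. These cells went against the label of osteoprogenitor, so leading results of the E15.5 library are given with all 261 cells and with the 216 cells under both 2-gene limits. These 216 still held 31 UMIs of Actc1 in 6 cells, 11 UMIs of Myod1, 1 UMI of Krt14 and 138 UMIs of Lgals7 in 23 cells. At E17.5, 2 of the 1010 OG1 cells held muscle genes and 0 held keratinocyte genes, which allows a share of up to 0.297%.

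**Figure D1:**
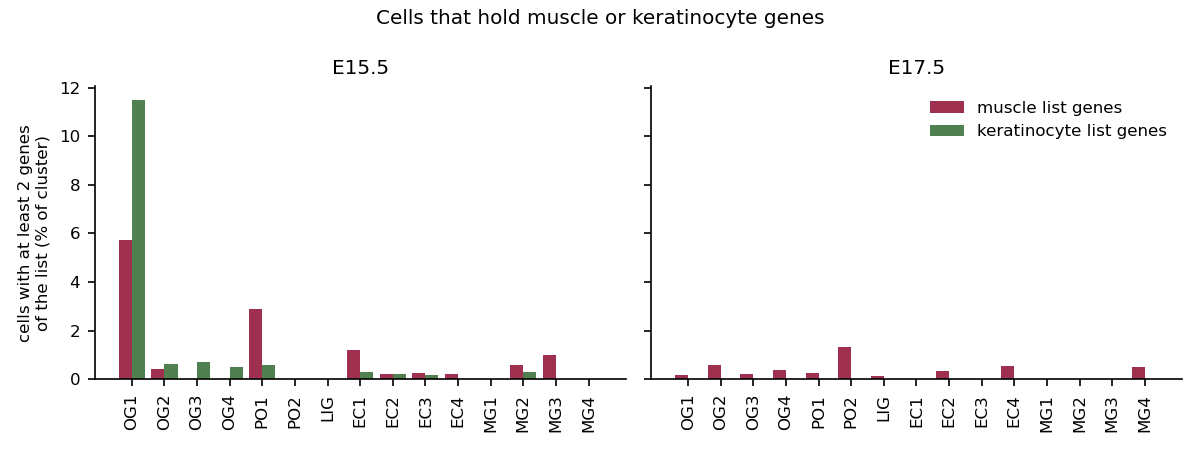
Share of cells (% of each cluster, y axis) with UMIs of at least 2 muscle list genes (dark red) or at least 2 keratinocyte list genes (green) in the 15 clusters at E15.5 (left) and E17.5 (right). OG1 at E15.5 stands apart with 5.75% and 11.5%.

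OG1 made up 4.89% of labelled cells at E15.5 (Clopper-Pearson interval 4.33 to 5.51) and 14.8% at E17.5 (13.95 to 15.65). The share was therefore 3.02 times as large at E17.5, with a counting interval of 2.64 to 3.48. Among osteogenic cells alone (OG1 to OG4, PO1 and PO2) OG1 took 20.3% and 29.5%, a ratio of 1.45 (1.27 to 1.67). The suffixes were far apart, with 8.18%, 16.1% and 16.3% of labelled cells and 18.2%, 30.6% and 32.8% of osteogenic cells. Within osteogenic cells the share in suffix 1 was thus below the 20.3% of E15.5, and those in suffixes 2 and 3 were above it. Without the cells past either 2-gene limit the E15.5 share was 4.11%.

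Erg and Pthlh lie at chr16:95359169-95586593 and chr6:147252101-147264183 of GRCm38, both on the minus strand. Their promoters are shown with that of Rasl11b (a small GTPase, described below), to show where the letters CCGGAA, a core that ETS factors read, stand in the naming genes and in the one leading gene with a match. Each window runs from 250 bases before to 50 bases after a RefSeq start on GRCm38.p6 and is written 5′ to 3′ on the strand of the gene, with CCGGAA in capitals. They are Erg (the first of 3 starts, chr16:95586544-95586843), Pthlh (chr6:147263964-147264263) and Rasl11b (chr5:74195076-74195375).
Erg: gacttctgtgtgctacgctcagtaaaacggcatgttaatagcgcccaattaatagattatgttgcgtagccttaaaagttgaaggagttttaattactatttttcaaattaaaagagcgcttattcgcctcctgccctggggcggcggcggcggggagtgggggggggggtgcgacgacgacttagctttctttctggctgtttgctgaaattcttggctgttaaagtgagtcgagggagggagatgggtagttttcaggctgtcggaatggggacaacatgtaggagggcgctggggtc
Pthlh: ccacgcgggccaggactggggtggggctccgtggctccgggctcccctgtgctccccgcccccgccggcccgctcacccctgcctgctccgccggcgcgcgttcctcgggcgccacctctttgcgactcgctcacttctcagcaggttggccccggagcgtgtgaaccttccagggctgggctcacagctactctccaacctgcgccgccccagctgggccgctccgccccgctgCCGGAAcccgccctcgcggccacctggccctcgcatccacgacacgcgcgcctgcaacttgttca
Rasl11b: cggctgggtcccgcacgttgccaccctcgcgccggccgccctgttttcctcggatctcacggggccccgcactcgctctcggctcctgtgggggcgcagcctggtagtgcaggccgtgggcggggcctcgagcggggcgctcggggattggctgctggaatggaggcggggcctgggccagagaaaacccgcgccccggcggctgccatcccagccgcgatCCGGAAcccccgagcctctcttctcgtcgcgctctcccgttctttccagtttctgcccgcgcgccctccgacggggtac
The letters stood 15 bases before the start in Pthlh and 29 bases before it in Rasl11b, and on neither strand of the 3 Erg windows. A match on either strand was found in 14.9% of all 32851 promoter windows of the table, so a match is a description of the sequence only.

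The naming genes were at their clearest in the E17.5 library. Erg stood at 86.3 CPM in OG1 (exact Poisson interval 81.2 to 91.8) against 17.7 CPM in the other labelled cells, a fold of 4.87, and the folds of the suffixes were 4.99, 4.67 and 4.96. OG1 had the highest Erg level of the 15 clusters, and the next was MG2 with 57.6 CPM. Pthlh stood at 39.2 CPM against 9.38, a fold of 4.18 with suffix values of 3.17, 4.48 and 4.66. It was not highest in OG1, since MG4 had 57.4 CPM and MG2 43.4 CPM, so of the 14 other clusters 2 meningeal ones exceeded it. Among osteogenic clusters, PO1 and PO2 included, both genes were highest in OG1. In OG2, OG3 and OG4 Erg stood at 16.1, 11.7 and 2.00 CPM and Pthlh at 6.81, 4.19 and 1.33 CPM. Pooled, PO1 and PO2 lay above OG2 and below OG1 for both genes.

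At E15.5 the same genes were close to the limit of detection. Erg had 13 UMIs in OG1, or 6.76 CPM against 1.95 CPM in the other labelled cells, a fold of 3.47 (3.71 in the 216 cells), and MG2 was higher with 9.10 CPM. Pthlh had 28 UMIs, or 14.6 CPM against 9.34, a fold of 1.56 (1.70 in the 216 cells). OG1 came after 4 other clusters for Pthlh and MG2 led with 47.2 CPM. Against the other osteogenic clusters alone the Pthlh fold at E15.5 was 12.9. Since the authors grouped the cells by their expression, none of these folds tests the cluster.

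Six2 and Net1 were the other genes listed for OG1. Six2, a homeobox gene of suture mesenchyme, stood at 41.8 CPM against 30.8 CPM at E17.5, a fold of 1.36 with 1.69, 1.27 and 1.31 in the suffixes, and MG2 led with 85.5 CPM. At E15.5 its fold was 1.44 with a counting interval of 0.947 to 2.11, so a difference from the other labelled cells was not detectable at this depth. Net1, an activator of the small GTPase RhoA, stood at 168 CPM against 48.0 CPM at E17.5 and at 52.5 CPM against 17.2 CPM at E15.5, folds of 3.50 and 3.06 (2.90 in the 216 cells). Its suffix folds were 3.25, 3.33 and 3.67. MG2 held 57.6 CPM of Net1 at E15.5, slightly above OG1. Net1 was therefore the gene of these 4 with more than 2-fold higher levels in both libraries and enough UMIs for the rule below.

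**Figure D2:**
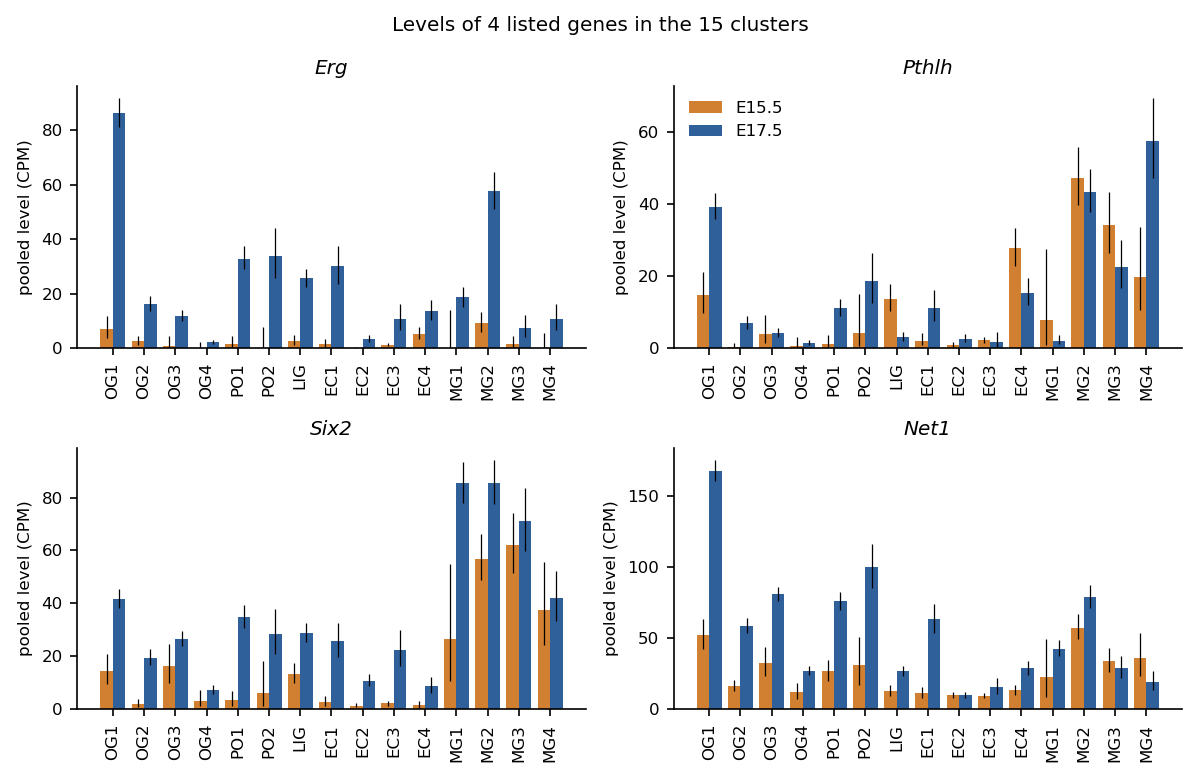
Pooled level (CPM, y axis) of Erg, Pthlh, Six2 and Net1 in the 15 clusters at E15.5 (orange) and E17.5 (blue), with exact Poisson intervals as error bars. At E17.5 OG1 was highest for Erg (86.3 CPM) and Net1 (168 CPM), and MG2 or MG4 was highest for Six2 and Pthlh.

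In single cells, Erg was found in 52.1% of OG1 cells at E17.5 against 16.5% of the other labelled cells. Free RNA in droplets adds UMIs to cells that do not express a gene, and the share in myeloid cells, with UMIs of at least 3 of 6 myeloid genes and a median of 12597 UMIs, was 12.9%. After thinning each cell to 3000 UMIs, which left out none of these cells, the shares were 23.4% in OG1, 5.24% in the other labelled cells and 2.81% in myeloid cells. Pthlh was found in 28.1%, 8.81% and 6.68% of these cells, and in 11.6%, 3.11% and 2.23% after thinning. Both genes were therefore above the myeloid background in OG1, and most OG1 cells held no Pthlh UMI.

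At E15.5 Erg was found in 4.21% of OG1 cells (2.12 to 7.42), 1.69% of the other labelled cells and 1.94% of 617 myeloid cells, whose median was 11140 UMIs. After thinning, with 28 OG1 cells, 132 other labelled cells and 19 myeloid cells too shallow, the shares were 2.15%, 0.648% and 0 of 598, which allows up to 0.502%. Pthlh was found in 8.43%, 6.01% and 2.11% of these cells and in 3.00%, 2.75% and 1.00% after thinning. The share of OG1 cells with Pthlh at E15.5 was thus within counting error of that in the other labelled cells.

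Erg and Pthlh were found in the same cell in 42 of 1010 OG1 cells at E17.5 after thinning, or 4.16% (3.01 to 5.58). The product of both shares was 2.71%, so the cells with both were 1.54 times that product, and 1.76, 1.69 and 1.37 times in the suffixes. In the other labelled cells the same ratio was 2.74. A UMI of Erg, Pthlh or Six2 was held by 38.9% of thinned OG1 cells (71.9% without thinning) and 16.01% of the other labelled cells (42.5%). In the E15.5 library no OG1 cell of 233 held both Erg and Pthlh, which allows up to 1.29%.

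A gene was called higher in OG1 when in both libraries its CPM reached 2 times the level of the remaining labelled cells, and lower when it was at most 0.5 times. Considered were 4933 genes with at least 50 UMIs seen or expected in OG1 in each library. Only 7 of them were higher (0.142%), and 146 were lower (2.96%). Since the clusters were built from these genes, the counts describe OG1 and do not test it. In single libraries 89 of the considered genes were at least 2-fold higher at E15.5 and 15 at E17.5, counts that include the 7. Among the 15 clusters, 17 genes were at their highest in OG1 in both libraries.

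The 7 genes were Net1, Enpp2, Bcl11b, Hhip, Sox6, Tnn and Rasl11b, in the order of the smaller of their folds. Sox6, a SoxD transcription factor of chondrocytes and other progenitors, was the one gene of them with its highest level in OG1 in both libraries. It stood at 63.5 CPM against 9.40 at E15.5, a fold of 6.75 (5.47 to 8.26), and at 85.8 CPM against 35.3 at E17.5, a fold of 2.43 (3.34, 2.22 and 2.38 in the suffixes). Tnn, which encodes the matrix glycoprotein tenascin-N (also tenascin-W) of periosteum and osteogenic tissue, stood at 40.0 CPM against 4.37 at E15.5 and 511 CPM against 235 at E17.5, folds of 9.16 and 2.18. Tnn was thus higher throughout the later library. There 48.4% of myeloid cells held a Tnn UMI (20.1% after thinning) against 95.7% of OG1 cells (73.0%). OG3 held more Tnn than OG1 at E15.5, with 85.8 CPM, and nearly as much at E17.5, with 493.9 CPM.

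Hhip is a membrane-bound antagonist of hedgehog ligands and itself a hedgehog target. It stood at 65.0 CPM against 26.5 at E15.5 and 95.5 CPM against 34.0 at E17.5, folds of 2.45 and 2.81. EC4 was higher at E15.5 with 86.96 CPM, and PO2 was about level with OG1 at E17.5 with 97.56 CPM. Enpp2, the enzyme autotaxin that makes lysophosphatidic acid, stood at 48.4 CPM against 9.70 and at 57.7 CPM against 20.8, folds of 4.98 and 2.77, and was higher still in MG4. Bcl11b, a zinc finger transcription factor linked to craniosynostosis, stood at 105.6 CPM against 39.6 and at 121.6 CPM against 48.9, folds of 2.67 and 2.49. Against the other osteogenic clusters alone the Bcl11b fold at E15.5 was 0.825, where OG2 held 183.6 CPM. At E17.5 PO2 was about level with OG1 for Bcl11b, at 125.3 CPM. Rasl11b stood at 75.9 CPM against 36.2 and at 121 CPM against 55.5, folds of 2.097 and 2.18, and EC4 was higher at both stages.

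With the mixed E15.5 cells left out, the same 7 genes were higher. The E15.5 folds in the 216 cells were 5.65 for Enpp2, 2.89 for Bcl11b, 2.87 for Hhip, 6.99 for Sox6, 10.6 for Tnn and 2.33 for Rasl11b. At E17.5, 6 of the 7 were past 2-fold in each suffix, and Rasl11b was at 1.74 in suffix 1. Other settings ended calls: against the other osteogenic clusters alone the E17.5 folds of Tnn, Sox6 and Hhip were 1.38, 1.79 and 1.81, and with the mean of per-cell CPM the E15.5 folds of Hhip and Rasl11b were 1.989 and 1.895. Among cells with a UMI of Xist, the RNA that silences 1 X chromosome in female cells, 4 genes were still called, namely Net1, Hhip, Bcl11b and Sox6. There Rasl11b (1.62 and 1.89) and, at E17.5, Tnn (1.95) fell below 2-fold. Enpp2 stayed past 2-fold at both stages but had too few UMIs in these cells to be considered. OG1 and the other labelled cells differed in their share of such cells, as given below, and the part of this in the folds was not tested.

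**Figure D3:**
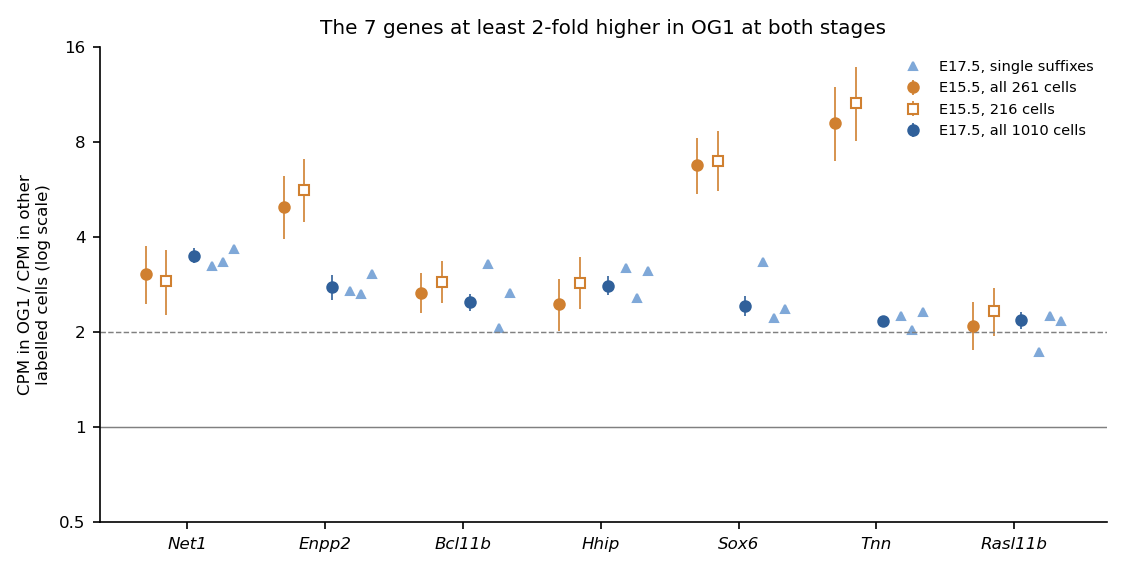
Ratio of CPM in OG1 to CPM in the other labelled cells (y axis, log scale) for the 7 genes at least 2-fold higher at both stages, with counting intervals as error bars. Filled circles show all OG1 cells (orange E15.5, blue E17.5), open squares the 216 E15.5 cells under both 2-gene limits, and triangles single E17.5 suffixes; Rasl11b in suffix 1 (1.74) lies under the dashed line at 2.

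Promoter windows were found for 6 of the 7 genes, 12 windows in all, and Enpp2 had none. The ETS letters CCGGAA were in 1 window (8.33%, Rasl11b), the RUNX letters TGTGGT in 2 (16.7%), the E-box letters CATCTG in 2 (16.7%, both of Sox6) and the GLI letters TGGGTGGTC in 0, counting both strands. Over all windows the shares were 14.9%, 16.8%, 17.2% and 0.253%. The 12 windows are too few to compare these shares, and nothing about the factors follows from them.

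The genes lower in OG1 were led by products of mature osteoblasts and of ectocranial fibroblasts. Of the 146 genes, 135 were also at most 0.5-fold in each E17.5 suffix. Bone sialoprotein Ibsp stood at 60.9 CPM against 1664 at E15.5 and 113 CPM against 1910 at E17.5, folds of 0.037 and 0.059. Osteocalcin Bglap, whose reads can be split with its near-identical neighbours Bglap2 and Bglap3, stood at 3.64 CPM against 62.7 and 0.837 CPM against 14.6. Ifitm5, a membrane protein of mineralizing osteoblasts, stood at 12.5 CPM against 137 and 46.8 CPM against 473, and Smpd3, a sphingomyelinase needed for mineralization, at 1.56 CPM against 65.8 and 17.8 CPM against 172. Against the other osteogenic clusters alone the folds of these 4 genes lay between 0.00517 and 0.0531, below those against all labelled cells.

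The others of the 10 leading lower genes were Ly6a, Col22a1, Dpp4, Efhd1, Luzp2 and Pi16. Ly6a (Sca-1), a surface protein of stem and fibroblast-like cells, stood at 21.8 CPM against 375 at E15.5 and 16.3 CPM against 231 at E17.5. Pi16, a marker of ectocranial fibroblasts, stood at 33.3 CPM against 307 and at 23.4 CPM against 214, but at 1.12 times the other osteogenic clusters at E15.5. Dpp4, a peptidase of the same fibroblasts, was at 0.088 and 0.082 times the other labelled cells, but at 1.16 times the other osteogenic clusters at E17.5. Ly6a was at 0.607 and 0.887 times the other osteogenic clusters, so the 2-fold limit was passed by none of these 3 genes against them.

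As a list, 5 of the 9 considered osteoblast matrix and mineral genes were lower in OG1 and none was higher, with median log2 folds of -1.94 at E15.5 and -2.47 at E17.5 against 0.09 and -0.00 over all genes considered. The 5 were Ibsp, Bglap, Spp1, Smpd3 and Ifitm5. Over all genes considered 2.96% were lower and 0.142% higher. Spp1 stood at 54.1 CPM against 208 and at 52.4 CPM against 290. Col1a1, Col1a2 and Sparc were at 0.37, 0.37 and 0.39 times the other cells at E15.5, and at 0.55, 0.56 and 0.64 times at E17.5, past the limit in the first library only. The 19 genes together made up 8600 CPM in OG1 at E15.5, the lowest of 15 clusters, and 18742 CPM at E17.5, against 24534 and 34488 CPM in the other labelled cells.

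Cell by cell, the median OG1 cell spent 0.687% of its UMIs on this list at E15.5 (percentiles 5 and 95 were 0.0549 and 2.09) and 1.77% at E17.5 (1.02 to 3.33). Without the mixed cells the E15.5 median was 0.844%. The medians of the suffixes were 1.86%, 1.67% and 1.86%. OG2 was similar, at 0.903% and 1.41%, OG3 was higher at 1.18% and 2.16%, and the osteoblast cluster OG4 stood far above at 20.6% and 4.83%. OG1 was thus the osteogenic cluster with the lowest median at E15.5, whereas at E17.5 OG2, PO1 and PO2 lay below it.

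**Figure D4:**
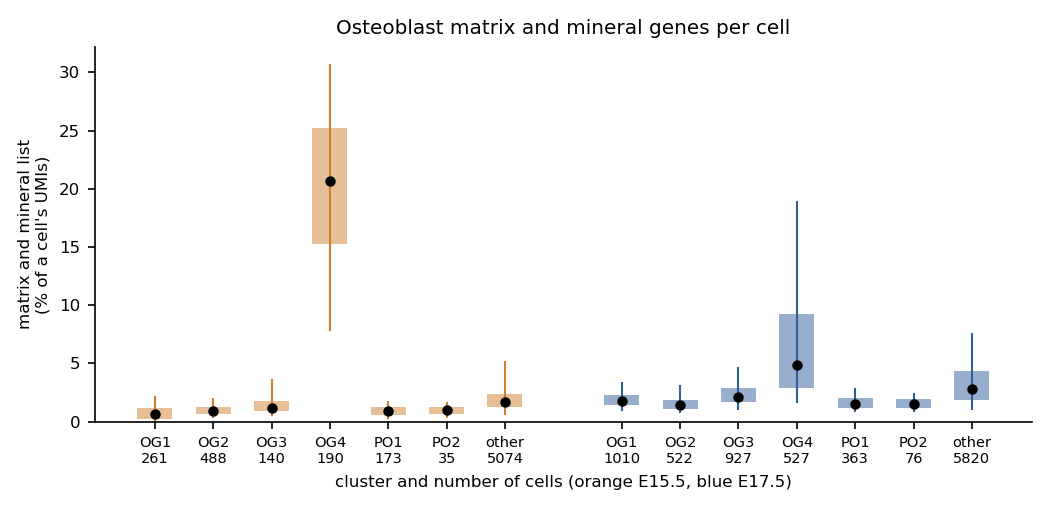
Share of a cell's UMIs in 19 osteoblast matrix and mineral genes (%, y axis) by osteogenic cluster and in the other labelled cells at E15.5 (orange) and E17.5 (blue), with the number of cells under each name. Dots are medians, boxes the middle of the cells between the quartiles, and lines span percentiles 5 to 95; the OG1 medians are 0.687% and 1.77%.

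The osteoblast transcription factors were present in OG1 at levels near those of the other labelled cells, and 0 of the 4 considered were called in either direction. Runx2 stood at 38.5 CPM against 28.0 at E15.5 (44.4 CPM in the 216 cells) and at 82.1 CPM against 84.9 at E17.5. Sp7 stood at 15.1 CPM against 12.2 and at 91.9 CPM against 120.1. Dlx5, a homeobox activator of osteogenesis with too few UMIs to be considered at E15.5, stood at 22.9 CPM against 9.68 and at 163 CPM against 95.8, folds of 2.36 and 1.71. The preosteoblast markers Lef1, a Wnt effector, and Inhba, an activin subunit, were past 2-fold higher at E15.5 (3.96 and 2.86) and short of it at E17.5 (1.95 and 1.85), so 0 of 2 considered were called.

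Of the genes around the naming ligand, 0 of 7 considered in the list of Pth signalling were called. The receptor Pth1r stood at 102 CPM against 114 at E15.5 and at 92.0 CPM against 172 at E17.5, folds of 0.892 and 0.534, and the suffix values were 0.525, 0.569 and 0.481. The level of Gnas, the G protein subunit that signals from the receptor, was at 0.692 and 0.765 times the other cells. OG1 therefore held more of the ligand's RNA than the other labelled cells at E17.5 and, below the 2-fold limit, less of the receptor's.

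Among signalling lists, hedgehog was the one with a gene higher in OG1 (1 of 6 considered, Hhip, and none lower). Ptch1, the hedgehog receptor and a target of the pathway, stood at 91.0 CPM against 25.02 at E15.5, a fold of 3.64 and the highest of 15 clusters, but at 61.0 CPM against 47.7 at E17.5, a fold of 1.28. Gli1, a target that also marks suture stem cells, had folds of 1.93 and 1.61. In the BMP list 2 of 12 were lower, namely the ligands Bmp3 (0.296 and 0.197) and Bmp7 (0.420 and 0.232), and none was higher. Gdf10, a ligand related to Bmp3, stood at 44.2 CPM against 31.1 at E15.5 and at 78.4 CPM against 27.7 at E17.5, a fold of 2.83 in the later library only.

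Over all 4933 genes 2.96% were lower, which is the share to set beside the counts of lower genes in the lists. In the Wnt list 3 of 14 were lower, the ligand Wnt2 (0.193 and 0.113) and the secreted inhibitors Sfrp1 (0.246 and 0.127) and Sfrp2 (0.354 and 0.272), although Sfrp2 was at 0.664 in suffix 1. In the FGF list 1 of 3 was lower, the feedback inhibitor Spry2 (0.493 and 0.266). In the list of retinoic acid and IGF genes 6 of 16 were lower, among them Aldh1a3 and Crabp2, which make or carry retinoids, and the IGF-binding proteins Igfbp2, Igfbp5 and Igfbp6. Igfbp6 was at 0.117 and 0.0889 times the other cells and Crabp2 at 0.374 and 0.0873 times. Cyp26b1, which breaks retinoic acid down, was 5.89-fold higher at E15.5 and, with a fold of 1.495, nearer to the others at E17.5. None of 9 TGF-beta and 3 Notch genes was called.

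Of 12 craniosynostosis genes considered, 0 were called, and their median log2 folds were -0.05 and 0.33. Twist1 stood at 34.3 CPM against 34.4 at E15.5 and at 123.1 CPM against 89.8 at E17.5, and its partner Tcf12 at 113 CPM against 79.5 and at 86.8 CPM against 70.1. Zeb2 had folds of 1.37 and 1.61. The FGF receptor Fgfr2 stood at 47.3 CPM against 18.6 at E15.5, a fold of 2.55, and at 97.1 CPM against 75.7 at E17.5, a fold of 1.28. All 4 of these genes were thus detected in OG1 without passing the limit at both stages.

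Of the ETS factors, 0 of 3 considered were called, but their summed level was highest in OG1 among the 15 clusters at E17.5, at 285.3 CPM against 149.3 CPM, a sum to which Erg itself contributes. Ets2 stood at 55.2 CPM against 18.2, a fold of 3.03 (2.51, 3.12 and 3.103 in the suffixes), and had a fold of 1.51 at E15.5. Elk3 was highest in OG1 in both libraries, with folds of 2.06 and 1.77. None of 12 craniofacial transcription factors was called, and of 9 suture stem cell markers 1, Ly6a, was lower. Prrx1, a mesenchymal homeobox gene, was at 1.04 and 1.02 times the other cells, and Axin2, with too few UMIs to be considered, at 0.964 and 1.69 times.

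Among genes of neighbouring skeletal tissues, cartilage and joint genes gave 1 higher (Sox6) and 1 lower (Col11a1, 0.457 and 0.453) of 9, and tendon and ligament genes 1 lower (Fmod, 0.279 and 0.336) of 7. Scx, the transcription factor of tendon progenitors, stood at 27.0 CPM against 5.42 at E15.5, a fold of 4.99, and at 31.2 CPM against 16.9 at E17.5, a fold of 1.85. Of 19 collagen chains 6 were lower (2.96% of all genes were), namely Col5a3, Col8a1, Col11a1, Col11a2, Col14a1 and Col22a1, and none was higher (0.142% of all genes were). Of 4 chondrocyte markers none was called, and their sum stood at 322.4 CPM against 325.7 and at 110.9 CPM against 107.8.

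Most markers of neighbouring mesenchyme were lower in OG1. All 4 considered ectocranial markers (Pi16, Dpt, Ly6a, C1qtnf3) and 3 of 4 meningeal markers (Crabp2, Gja1, Nppc) were lower. Over all genes considered 2.96% were lower, and Gja1 was at 0.538 in the 216 cells of E15.5. The authors used these genes as markers of ectocranial and meningeal clusters, which are part of the other labelled cells. Their lower levels in OG1 were therefore built in and test nothing. The 1 endothelial marker considered, Tek, was lower (0.128 and 0.107), and the summed endothelial list stood at 30.7 CPM against 82.4 and 24.6 CPM against 41.3. The 1 pericyte marker considered, Kcnj8, was lower. Both genes were highest in ectocranial clusters, Tek in EC2 (103 and 106 CPM) and Kcnj8 in EC4 at E15.5 (117 CPM) and EC2 at E17.5 (227 CPM). OG1 took place 11 and 9 of the 15 clusters for Tek and place 7 at both stages for Kcnj8. No myeloid, osteoclast or keratinocyte marker had enough UMIs to be considered, and the summed myeloid list stood at 58.3 CPM against 44.6 at E15.5 and 132.5 CPM against 145.6 at E17.5. The summed muscle list stood at 639.7 CPM at E15.5, highest in OG1, and at 6.36 CPM at E17.5, with its 1 considered marker not called. The summed keratinocyte list stood at 395.8 CPM, also highest, and at 0.502 CPM.

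The 4 red blood cell genes were not called, but at E15.5 their sum of 12436 CPM was the highest of the clusters, against 10779 CPM in the other labelled cells. The dissociation response list had 1 of 12 lower and none higher. Of neural and glial markers, 1 was considered and not called, and 4 of 6 had 0 UMIs in OG1 at E15.5. The summed list stood at 187.7 CPM against 106.1 at E15.5 and at 17.1 CPM against 10.3 at E17.5. Stmn2 alone gave 186.7 and 104.7 CPM of the E15.5 sums, and OG2 had the highest sum there, 670.1 CPM. Of 15 proliferation genes none was called, with median log2 folds of 0.21 and -0.75. Mki67 stood at 42.1 CPM against 46.1 at E15.5 and at 26.7 CPM against 51.5 at E17.5. In the deposited cell cycle calls, in G2M were 14.2% of OG1 cells in the E15.5 library and 5.25% in the E17.5 library (2.97%, 6.04% and 4.98% in the suffixes), against 10.4% and 16.9% of the other labelled cells. For S phase these shares were 32.2% and 29.9% against 21.1% and 17.9%.

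The cluster most like OG1 was OG2 at E15.5 and OG3 at E17.5. Spearman's rho across genes of log2(CPM + 1) was 0.933 with OG2, 0.924 with LIG and 0.923 with OG3 at E15.5 (10048 genes), and 0.971 with OG3, 0.967 with OG2 and 0.95 with LIG at E17.5 (9563 genes). The least like were OG4 with 0.776 at E15.5 and EC2 with 0.849 at E17.5. These values are across genes of clusters that share a library, and the order of the first 3 changed between the libraries.

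Against OG2, 34 of 4805 genes were at least 2-fold higher in OG1 in both libraries (0.708%) and 12 were at most 0.5-fold (0.25%). Gpha2, which encodes a glycoprotein hormone subunit, stood at 27.6 CPM in OG1 and 0.488 CPM in OG2 at E15.5, where OG2 had 2 UMIs and the ratio had an interval of 14.9 to 479, and at 43.6 CPM against 7.06 CPM at E17.5, a fold of 6.17. The growth factor gene Igf1 stood at 490 CPM against 75.3 and at 112 CPM against 22.1, folds of 6.51 and 5.08. Scx stood at 27.0 CPM against 0.731 at E15.5, from 3 UMIs in OG2 (interval of the ratio 11.97 to 185), and at 31.2 CPM against 8.20 at E17.5. Mfap4, a protein of elastic microfibrils, had folds of 3.25 and 3.11, and Tagln, an actin-binding protein of contractile cells, of 5.81 and 2.76. Net1 (3.17 and 2.85), Pnmal2 (6.40 and 3.06) and 6330403K07Rik (4.40 and 2.91) completed the first 8. Without the mixed cells Pnmal2 had 14 UMIs in OG1 at E15.5, too few to be considered, and its fold over OG2 was 2.16.

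The leading genes on the OG2 side were Crabp1, a retinoic acid binding protein (272.5 CPM in OG1 against 1742 in OG2 at E15.5, and 19.7 CPM against 88.5 at E17.5), the mitotic genes Ccnb2 and Cenpa, the collagen Col26a1, and 4 enzymes of sterol synthesis. The sterol enzymes Idi1, Mvd, Hmgcs1 and Sqle were at 0.346, 0.445, 0.449 and 0.410 times OG2 at E15.5 and at 0.420, 0.454, 0.463 and 0.472 times at E17.5. Ccnb2 was at 0.414 and 0.236 and Cenpa at 0.481 and 0.229, beside G2M calls in 39.1% of OG2 cells at E17.5.

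The 2 clusters also differed in the share of cells with sex-linked RNA. A UMI of Xist was held by 49.4% of OG1 cells and 17.01% of OG2 cells at E15.5, and by 48.1% and 24.5% at E17.5. A UMI of the Y-linked gene Ddx3y was held by 19.2% and 47.5% at E15.5, and by 31.9% and 51.7% at E17.5. The part of this in the OG1 to OG2 differences was not tested. Against all other labelled cells OG1 had more Xist cells at E17.5 (48.1% against 23.0%; 36.6, 50.1 and 48.7% in the suffixes against 23.1, 22.6 and 23.4%) but not at E15.5 (49.4% against 57.4%).

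**Figure D5:**
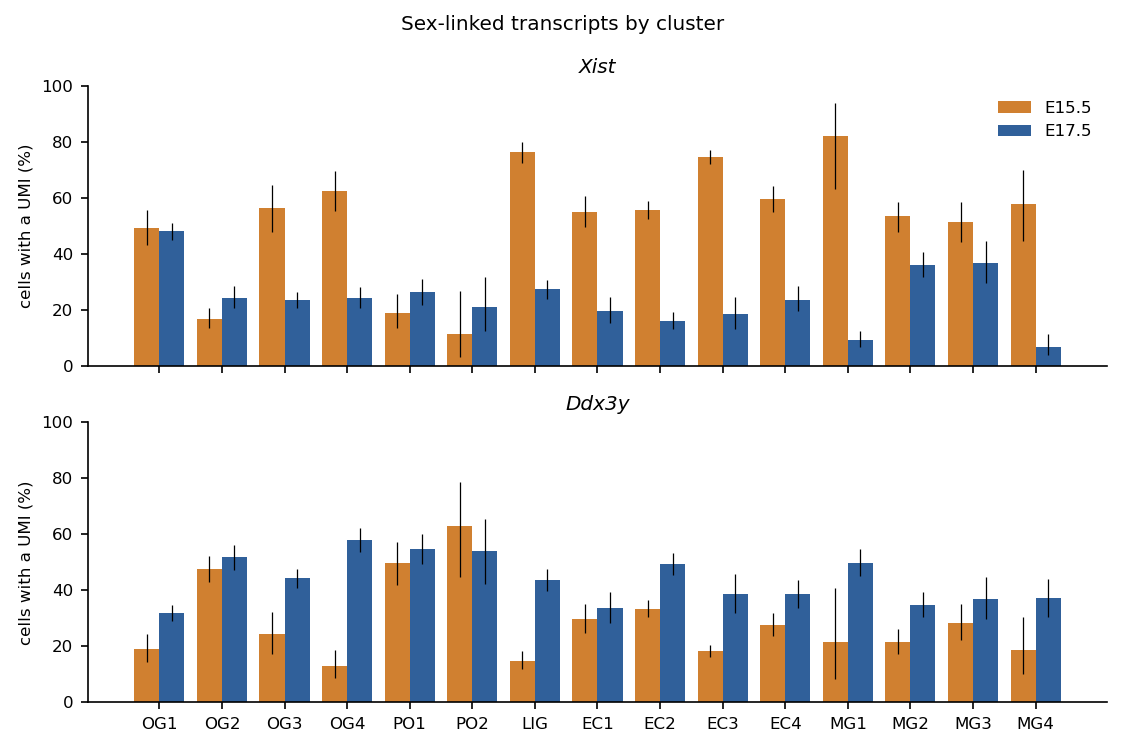
Share of cells with a UMI (%, y axis) of Xist (top) and Ddx3y (bottom) in the 15 clusters at E15.5 (orange) and E17.5 (blue), with Clopper-Pearson intervals as error bars. OG1 has the highest Xist share of the clusters at E17.5 (48.1%).

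Against OG3, 29 of 3621 genes were higher in OG1 (0.801%) and 35 lower (0.967%). Stmn2, a regulator of microtubules, stood at 186.7 CPM against 6.18 at E15.5 and at 11.0 CPM against 2.02 at E17.5. Igf1 (4.67 and 4.93), Gdf10 (4.09 and 6.27), Rasl11b (3.51 and 3.33) and Igfbp2 (3.21 and 3.13) followed the same direction, as did Angptl1 and Strbp. Bex1 had folds of 4.27 and 5.93, but its E15.5 fold was 1.45 without the mixed cells, below the limit. On the OG3 side were the collagenase Mmp13, with 3.12 CPM in OG1 against 321 in OG3 at E15.5 and 16.2 CPM against 185 at E17.5, and Spp1, with 54.1 CPM against 1598 and 52.4 CPM against 560. Podnl1, Egr2, Fmod, Gpx3 and Cd200 were also on this side, at 0.0747 to 0.262 times OG3 at E15.5 and 0.160 to 0.252 times at E17.5. The genes that set OG1 apart from OG3 thus included Spp1 and Mmp13, which belong to bone matrix and its remodelling.

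Against the osteoblast cluster OG4 the differences were far more numerous, with 372 of 4791 genes higher (7.76%) and 291 lower (6.07%). Igf1 (16.1 and 13.8), Tagln (24.1 and 13.4), the matrix proteoglycan gene Aspn (788.9 CPM against 56.4, and 1710 CPM against 129.8) and Trabd2b, an inhibitor of Wnt proteins (13.2 and 19.1), led on the OG1 side. On the OG4 side Ibsp stood at 60.9 CPM in OG1 against 41200 in OG4 at E15.5 and at 113 CPM against 13640 at E17.5. Bglap2 stood at 1.04 CPM against 606 and at 0.335 CPM against 68.3. Phex, a regulator of phosphate handling in osteoblasts, had 1 UMI in OG1 at E15.5 and 0 at E17.5, at least 73.3-fold lower there than its 18.4 CPM in OG4, where 3 UMIs are taken as the floor. Scn3a had 0 UMIs in OG1 in both libraries, at least 23.7-fold and 20.5-fold lower.

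Against the proliferating clusters, OG1 was lower in genes of the cell cycle. Of 4992 genes, 26 were higher than in PO1 (0.521%) and 251 lower (5.03%), and of 1627 genes, 9 were higher than in PO2 (0.553%) and 111 lower (6.82%), where PO2 held 35 cells at E15.5. The lower genes were led by the histone genes Hist1h1b (0.040 and 0.043), Hist1h2ap, Hist1h2af and Hist1h2an against PO1, and by Ccnb1 (0.049 and 0.051), Cenpf, Sapcd2 and Cdc20 against PO2. Higher than in PO1 were Gpha2 (3 UMIs in PO1 at E15.5, and a fold of 4.40 at E17.5), the elongation factor Tcea3 (7.58 and 4.23), the histone demethylase Kdm5b (3.96 and 3.89) and Gdf10 (3.34 and 3.39). Higher than in PO2 were the proteoglycan gene Ogn (6.02 and 3.62), Mia (3.19 and 2.94), Igf1 (6.42 and 2.88) and the cyclin gene Ccnd2 (2.54 at both stages).

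Between the libraries, 208 of 5017 genes were at least 2-fold higher in OG1 at E17.5 and in each suffix (4.15%) and 331 were at most 0.5-fold (6.6%). All 4 genes listed for OG1 were higher. Erg was 12.8-fold higher in OG1 (7.44 to 24.1), with 11.95, 12.6 and 13.1 in the suffixes, and 9.09-fold in the other labelled cells. Pthlh was 2.69-fold higher in OG1, while the other labelled cells stood at 9.34 and 9.38 CPM. Six2 and Net1 were 2.87-fold and 3.2-fold higher in OG1 and 3.05-fold and 2.80-fold in the other labelled cells.

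The osteoblast factors Sp7 (6.10), Dlx5 (7.14), Dlx6 (9.90), Msx1 (3.92) and Msx2 (2.26) were higher in OG1 at E17.5, 5 of 7 considered, and each differed by a larger factor in the other labelled cells. Of 9 matrix and mineral genes, Alpl (3.62), Col1a1 (2.63), Ifitm5 (3.75), Enpp1 and Omd were higher. Lower at E17.5 were both preosteoblast markers, Lef1 (0.221) and Inhba (0.355), and 6 of 16 Wnt genes, among them Sfrp1 (0.102) and Wnt2 (0.236), while 3 Wnt genes were higher. Of 14 retinoic acid and IGF genes 6 were lower, among them Crabp1 (0.0721) and Igf1 (0.228), and Igf2 was 65.1-fold higher. Twist1 was 3.59-fold higher and 3 other craniosynostosis genes of 13 were higher too. The shares to set beside these counts are 4.15% higher and 6.6% lower over all 5017 genes.

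Many of these differences were shared with the other cells of the libraries. Igf2 was 42.6-fold higher in the other labelled cells, and the red blood cell genes were 4 of 4 lower in OG1 with a median log2 fold of -4.54. The 10 genes most raised in OG1 were Fdx1l, Srp54b, Calm5, Igf2, Hgs, Gm10073, Ptx4, Gm10036, Tonsl and Gm6133. Fdx1l and Srp54b had 0 UMIs in OG1 at E15.5, which puts them at least 33.5-fold and 154-fold higher at E17.5, and the other labelled cells moved from 0.0857 to 51.1 CPM and from 0.0643 to 230 CPM. The matrices were counted with different gene annotations, whose part in such differences was not tested. The 10 genes most lowered all had 0 UMIs in OG1 at E17.5. Muscle genes were 7 of them (Actc1, Mybph, Myh3, Myl1, Myod1, Myog and Tnni1) and Krt14 was another. Myog had all of its 506 OG1 UMIs in the 15 cells with muscle genes, and Krt14 had 219 UMIs in the 30 cells with keratinocyte genes and 1 in the 216 others. The remaining ones were Atcayos and Mia2, which stood at 0.0496 and 0 CPM in the other labelled cells of E17.5.

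Divided by the fold in the other labelled cells, the E17.5 to E15.5 fold of OG1 was at least 2 for 32 of 4981 genes (0.642%) and at most 0.5 for 102 (2.05%), and 16 and 66 of them remained without the mixed cells. Those with a higher ratio in both settings included the matrix gene Ecm2 (3.29), the transcription factor Nfatc1 (3.22), the receptor partner Ramp2 (2.75) and Pthlh (2.68). For Creb5 (3.35) the OG1 level was alike at both stages, at 35.9 and 36.1 CPM, and that of the other labelled cells went from 145.2 to 43.5 CPM. For Tmem100 (3.097) OG1 went from 53.6 to 67.8 CPM and the others from 187 to 76.5 CPM. Ramp2 moved from 168 to 441 CPM in OG1 and from 175.7 to 168 CPM in the other labelled cells. Those lower in both settings included Fst, an activin antagonist (0.0657), the surface protein Cd24a (0.0933), Cyp26b1 (0.254), Trps1, a zinc finger factor of bone and cartilage (0.278), Ptch1 (0.352) and Sox6 (0.360). Sox6 was 1.35-fold higher in OG1 at E17.5 but 3.76-fold higher in the other labelled cells, so its fold over them was smaller.

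The E17.5 library alone, with its greater depth, gave a fuller list. At least 2-fold higher in OG1 there and in each suffix, with at least 50 UMIs in OG1, were 59 of 9984 genes (0.591%), a list drawn up after the values were seen. Of these 40 had their highest level of the 15 clusters in OG1, and 30 were also past 2-fold at E15.5, most of them on few UMIs. The potassium channel gene Kcna1 stood at 6.61 CPM against 0.719, a fold of 9.19, and the pentraxin Ptx4 at 72.2 CPM against 10.8, a fold of 6.67. Rxrg, a retinoid X receptor, had a fold of 6.42 from 14.98 CPM, Meox1, a homeobox gene, of 5.59 from 15.4 CPM and Otor of 5.07 from 27.4 CPM. At E15.5 these 3 had folds of 10.6, 6.31 and 5.86 from 20 to 48 UMIs. In the 216 cells under both 2-gene limits the E15.5 folds were 5.99, 7.31 and 6.86, and Rxrg had 10 UMIs. The calmodulin-like genes Calm5 and Calm4 stood at 40.0 CPM against 5.25 and at 39.9 CPM against 8.56.

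Some of these genes were not above the rest at E15.5. Ramp2 had a fold of 2.62 at E17.5 and 0.956 at E15.5, Ecm2 of 3.30 and 1.00, and Enpp1, which makes the mineralization inhibitor pyrophosphate, of 2.71 and 0.707. Enpp1 stood at 31.6 CPM in OG1 against 11.7 CPM at E17.5, where OG3 came next with 26.5 CPM. Lepr, the leptin receptor, had folds of 2.32 at E17.5 and 1.62 at E15.5 (1.89 in the 216 cells), and Col15a1, a collagen of basement membranes, of 3.98 and 1.96, so both were above the rest in each library.

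Within OG1 the genes whose counts spread most from cell to cell were measured by the Fano factor, the variance over the mean of thinned counts, which is 1 for pure counting noise. Its median over 1565 genes was 1.10 at E15.5 and 1.04 at E17.5. The 12 genes with the largest values in both libraries were Malat1, Col1a1, Sparc, Meg3, Actb, Col1a2, Lum, Sfrp2, Acta2, Fos, H2afz and Itm2a. Malat1, a nuclear RNA, had 33.2 and 12.6, Col1a1 8.15 and 5.67, Sparc 6.57 and 4.57, and Meg3 11.5 and 4.43. By this measure matrix genes (Col1a1, Col1a2, Sparc and Lum) were among those that varied most between cells of the cluster. Beside them stood the immediate early gene Fos (3.101 and 5.08, with 3.11 to 8.14 over the suffixes). The ranking was not adjusted for level, and these matrix genes were abundant, with mean thinned counts of 20.4, 16.5, 20.1 and 3.14 at E17.5. The E15.5 values include the mixed cells.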

How the data were processed

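Coronal suture cells of wildtype mouse embryos were measured at E15.5 (1 droplet library) and E17.5 (3 preparations, deposited as 1 sample). The authors aligned reads to mm10 and counted UMIs per gene and barcode with Cell Ranger (the header of the deposited E15.5 matrix names version 3.1.0), and the deposited counts are not normalized. Per the labels FastQC 0.11.7, MultiQC 0.9 and Seurat 3.2.0 were used. The deposited cell table gives each cell's library, cluster, cell cycle phase and the S and G2M score that the authors computed with Seurat, and the scores themselves were not analysed. A list of cell names without values was not used.

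Barcodes were matched to the table after the last suffix of each row name was removed. OG1 UMIs were summed per library and divided by all UMIs of the cells (CPM), and compared with all other labelled cells of the same library. Genes with at least 50 UMIs seen or expected in OG1 were considered, and limits of 2-fold and 0.5-fold in both libraries were used for calls. Intervals are exact Poisson or Clopper-Pearson at 95%, and a count of 0 was given a floor of 3 counts. For detection, cells were thinned to 3000 UMIs (seed 7). Doublets were scored with Scrublet (scanpy 1.11.5) per library or suffix, cells at or above percentile 94 stayed in, and an alternative removed them. UMI totals of the OG1 cells set the precision, and E15.5 is the shallower library. Python 3.11.15, numpy 2.4.6, scipy 1.17.1 and pandas 2.3.3 were used. In simulated counts of 4933 genes for the comparison with the other labelled cells, 100 of 100 genes raised 4-fold and 91 of 100 genes lowered to 0.25-fold were recovered, and 0 of 4733 unchanged genes were called. The simulated counts held Poisson counting noise only, without spread between cells, embryos or preparations and without the cutting of clusters. They therefore describe how the rule handles counting noise and give no error rate for the calls in OG1.

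Named genes were those of the lists, the up to 20 genes higher and 10 lower in OG1 ranked by the weaker of the library folds, 8 in each direction against OG2 and OG3, 4 against OG4, PO1 and PO2, 10 in each direction for the stage, and 12 by Fano factor. Mitochondrial, ribosomal protein, haemoglobin, Y-linked and Xist genes were left out of these ranks, and a few genes that met the rule are not reported here. Genes of the E17.5 list and of the fold relative to the other cells, and Xist and Ddx3y, were chosen after their values were seen. The members and the lists were chosen with earlier results of these data known. Alternatives changed the comparator, the denominator, the limits, the minimum UMIs, the scaling, the doublets and the suffixes.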

Additional observations from a re-analysis of the deposited data

Results flagged for a closer look

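Cd24a, a small surface glycoprotein, went in opposite directions at the 2 stages, and the difference was not tested. Its fold in OG1 over the other labelled cells was 3.16 at E15.5 and 0.295 at E17.5, with 0.122, 0.376 and 0.2501 in the suffixes.

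Signal of other tissues appeared in cells labelled OG1 at E15.5, above its level in the other labelled cells. UMIs of at least 2 muscle genes were held by 15 cells, and UMIs of at least 2 keratinocyte genes by 30 cells.

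The sex-linked RNA Xist lay outside the comparisons of gene groups and was more often found in OG1 at E17.5, in 48.1% of its cells against 23.0% of the other labelled cells.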

How the results depend on the processing

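No paired analysis was possible because E15.5 has 1 library and the barcode suffixes of E17.5 have no partner there. Within a suffix, a test of OG1 against the other cells would test clusters cut on these genes, so the suffix values are given alone. Leaving out the cells with at least 2 muscle or 2 keratinocyte genes, keeping only cells with a Xist UMI and splitting co-detection by suffix were chosen after seeing the data. Of the main results, 46 values moved by more than their counting interval (or a count by over 1.5 times) and 110 did not, and the cause was not tested. The OG1 share of E15.5 was 3.18% of all kept cells, 20.3% of osteogenic cells and 4.11% without the mixed cells. That of E17.5 was 11.5% and 29.5%, and 8.18%, 16.1% and 16.3% in the suffixes. With the mean of the 14 other clusters as comparator, E15.5 folds were 0.866 (Six2) and 2.25 (Net1), and E17.5 folds 4.42 (Erg), 2.73 (Pthlh) and 1.18 (Six2). With the other osteogenic clusters, they were 12.9 (Pthlh) and 3.15 (Six2) at E15.5, and 5.84 (Erg), 6.78 (Pthlh), 1.92 (Six2) and 2.69 (Net1) at E17.5. In cells with a Xist UMI the E17.5 folds were 4.04 (Erg), 3.04 (Pthlh) and 2.80 (Net1). In suffix 1 they were 3.17 (Pthlh), 1.69 (Six2) and 3.25 (Net1). The ratio of thinned shares was 4.46 for Erg and 3.03 for Net1, and the mean of per-cell CPM gave 3.50 for Pthlh.

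Genes higher and lower in OG1 were 43 and 270 at a 1.5-fold limit, 1 and 76 at a 3-fold limit, 22 and 246 with a minimum of 20 UMIs, and 221 and 687 with a minimum of 1 UMI. Against the other osteogenic clusters 38 were higher, of which 3 were among the 7, and with Xist cells 4. Genes higher and lower at E17.5 within OG1 were 505 and 774 at 1.5-fold, 347 and 625 with 20 UMIs, 32 and 102 relative to the other labelled cells, and 316 and 543 in suffix 1 alone. Directions reversed against the other osteogenic clusters for Bcl11b (0.825), Efhd1 (1.06), Luzp2 (1.77) and Pi16 (1.12) at E15.5 and for Dpp4 (1.16) at E17.5. With 13 Erg and 28 Pthlh UMIs in OG1, values of both naming genes rest on few counts in the E15.5 library. After thinning to 3000 UMIs per cell, the share of OG1 cells with Erg was still 2.15% in that library, against 23.4% in the E17.5 library. For Pthlh these shares were 3.00% and 11.6%. The cause of the low counts was not tested.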

Other observations

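Genes past 2-fold in OG1 at E15.5 alone, chosen after their values were seen, included Cpne5 (100 CPM against 15.53, fold 6.46), Trps1 (121 CPM against 25.5, fold 4.75), the neurotrophic factor gene Nrtn (5.29), Ndnf (4.01), the integrin ligand Npnt (3.70), the matrix gene Tnc (2.75) and the Wnt inhibitor Wif1 (2.57). Acta2, the smooth muscle actin, had a fold of 6.63 there with all 261 cells but 2.88 in the 216 cells under both limits for muscle and keratinocyte genes, where its level was 99.7 CPM in place of 252.2 CPM. In the same 216 cells Cpne5 stood at 117 CPM and Trps1 at 135 CPM.

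With a minimum of 20 UMIs in place of 50, the genes higher in both libraries also included the transcription factor genes Rxrg, Meox1 and Eya1, the BMP antagonist Nog and the ligand Fgf10. Without the mixed cells Rxrg and Eya1 had 10 and 19 UMIs in OG1 at E15.5, below this minimum.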
